A study of Mus musculus with 18 samples.

Results

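Expression of the Hoxa gene cluster, a row of homeobox genes on mouse chromosome 6, was described in ERBB2-driven mammary tumours for 8 of its genes (Hoxa2, Hoxa3, Hoxa4, Hoxa5, Hoxa6, Hoxa7, Hoxa9 and Hoxa10) of 19938 genes measured. They were taken by their platform symbol from probe sets, the groups of probes that report a transcript, that name a single gene. Each of the 8 genes had 1 such probe set. The genes were picked because Hoxa5 was higher in tumours of parous than of nulliparous WT mice, so that contrast is given below as a description, without a p-value.

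Hoxa genes encode homeodomain transcription factors. In the embryo, Hox genes are switched on in the order in which they lie along the chromosome, with the 3' genes (low numbers) active earlier and more anteriorly than the 5' genes (high numbers). Polycomb complexes hold silent Hox genes in repressed chromatin, Trithorax and MLL complexes keep active ones open, and retinoic acid is a known inducer of the 3' genes. In mammary tissue HOXA5 is best known from human breast cancer, where its promoter is often methylated and its protein has been linked to epithelial identity. These statements are background and not results of these data.

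RNA came from mammary tumours of mice that all carried the ERBB2 (neu) transgene of the strain FVB/N-Tg(MMTVneu)202Mul/J, in which the MMTV promoter drives the transgene mainly in mammary epithelium. Snai2, a zinc finger transcription factor of the Snail family, was either deleted (KO, from B6;129S1-Snai2tm2Grid/J mice) or intact (WT). The 18 single-colour arrays fell into 6 groups: KO parous with metastasis (3 arrays), KO parous without metastasis (3), KO nulliparous with metastasis (1), KO nulliparous without metastasis (3), WT parous with metastasis (4) and WT nulliparous with metastasis (4). The labels describe the tumours as luminal and give no ages and no treatment. All WT mice had metastasis, so metastasis status varied among KO mice alone. Among the KO parous arrays with metastasis, replicates 2 and 3 nearly coincided (the SD of their difference was 0.102 log2 units, where every other of the 153 possible pairs had at least 0.285), and their mean was used as 1 sample. This left 17 samples, 9 KO and 8 WT.

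Values are log2 expression after RMA, the authors' array normalization, and a difference of 1 is a doubling. RMA compresses low signals, so differences of dim genes are understated. Array medians lay between 7.60 and 7.67. Erbb2 lay between 12.62 and 12.91 in KO tumours and between 12.45 and 12.92 in WT tumours. Snai2, the deleted gene, was dim, with 6.28 to 6.79 in KO tumours and 6.68 to 7.09 in WT tumours, and the ranges overlapped. The luminal epithelial marker score, the mean log2 value of 13 genes, lay between 10.76 and 11.43 in all KO tumours and between 10.95 and 11.25 in all WT tumours.

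The promoters of Hoxa5 and Hoxa6, which varied most between tumours, of Hoxa7, which varied less, and of Hoxa9, which varied least, are shown to set the sequences of moving and flat neighbours side by side. Each runs from 250 bases before to 50 bases after the start of the RefSeq transcript, 5' to 3' on the minus strand of GRCm38.p6. Hoxa5 is at chr6:52204538-52204837, Hoxa6 at chr6:52208623-52208922, Hoxa7 at chr6:52218524-52218823 and Hoxa9 at chr6:52227321-52227620. Capitals mark matches, on either strand, to the motifs searched.
Hoxa5: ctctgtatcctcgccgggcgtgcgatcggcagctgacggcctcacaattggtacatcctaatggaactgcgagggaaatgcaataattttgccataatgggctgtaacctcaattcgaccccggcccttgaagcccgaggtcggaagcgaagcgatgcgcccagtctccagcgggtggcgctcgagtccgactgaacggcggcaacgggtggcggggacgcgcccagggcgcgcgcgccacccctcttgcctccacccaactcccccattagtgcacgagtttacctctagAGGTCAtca
Hoxa6: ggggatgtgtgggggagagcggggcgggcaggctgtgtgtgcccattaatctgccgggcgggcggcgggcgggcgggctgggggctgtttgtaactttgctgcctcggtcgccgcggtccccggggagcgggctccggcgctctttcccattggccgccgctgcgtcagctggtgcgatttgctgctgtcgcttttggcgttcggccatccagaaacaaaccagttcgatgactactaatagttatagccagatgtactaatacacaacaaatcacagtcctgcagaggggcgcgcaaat
Hoxa7: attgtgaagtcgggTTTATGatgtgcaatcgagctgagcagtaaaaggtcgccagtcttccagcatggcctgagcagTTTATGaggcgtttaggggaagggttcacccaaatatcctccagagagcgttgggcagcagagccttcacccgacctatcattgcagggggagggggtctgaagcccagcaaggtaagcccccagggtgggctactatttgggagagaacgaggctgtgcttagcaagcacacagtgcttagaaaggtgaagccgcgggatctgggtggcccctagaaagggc
Hoxa9: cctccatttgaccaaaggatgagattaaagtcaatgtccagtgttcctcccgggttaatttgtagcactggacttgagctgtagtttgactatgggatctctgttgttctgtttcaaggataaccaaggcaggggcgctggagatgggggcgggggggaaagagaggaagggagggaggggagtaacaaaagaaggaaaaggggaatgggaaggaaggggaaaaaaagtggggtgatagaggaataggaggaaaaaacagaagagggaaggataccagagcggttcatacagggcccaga

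The capitals in Hoxa5 are an AGGTCA, the half-site of nuclear receptors such as the retinoic acid receptors, at position 42 after the start, which 16.3% of 32851 mouse promoters of the same length held. Those in Hoxa7 are 2 copies of TTTATG, the site of caudal factors, at positions -236 and -173, held by 11.9% of promoters. The Snail-family E-box CAGGTG, held by 20.2% of promoters, was found in none of the Hoxa promoters searched. No promoter sequence was at hand for Hoxa4, so that gene was not searched. The search also took in the TATA box (TATAAA), held by 13.6% of promoters, and a HOX-PBX site. That site was spelled TGATNNAT and was held by 8.85% of promoters. It matched in Hoxa2 at position -111, and the TATA box matched at position -160 of 1 of the 2 listed starts of Hoxa10. Hoxa6 and Hoxa9 had no match to any of the 5 motifs, and no matches overlapped. A match is a description of letters and not a binding site. The promoters also differ in CpG content. Hoxa5 held 29 CpG dinucleotides (observed over expected 1.02) and Hoxa6 held 26 (0.923), against 9 (0.405) in Hoxa7 and 4 (0.28) in Hoxa9, with a median of 7 (0.384) over all promoters. Hoxa3 held 20 (0.657), Hoxa2 held 9 (0.589) and the flat gene Hoxa10 held 12 (0.596) and 21 (0.853) at its 2 listed starts. A relation of CpG content to the variation between tumours was not tested. Mir196b, the microRNA gene between Hoxa9 and Hoxa10, gives the mature miR-196b-5p at chr6:52230129-52230150 on the minus strand, shown with its seed (bases 2 to 8) in capitals because the gene lies inside the cluster and was measured on the same arrays.
mmu-miR-196b-5p: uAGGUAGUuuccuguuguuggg

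Hoxa5 encodes a homeodomain factor needed for lung and axial skeleton development in the mouse. It had 6.43 and 6.54 in KO parous tumours with metastasis and 6.14, 6.83 and 8.65 in KO parous tumours without metastasis. It had 7.38 in the KO nulliparous tumour with metastasis and 8.40, 6.93 and 6.52 in KO nulliparous tumours without metastasis. In WT parous tumours it had 8.12, 8.25, 9.31 and 9.68, and in WT nulliparous tumours 6.65, 6.43, 6.38 and 6.40. All 4 WT parous tumours were high and the WT nulliparous tumours were low and tight. Among KO tumours a single replicate of each group without metastasis reached the WT parous range, and the others stayed below it. Ordered by group mean, WT parous tumours (8.84 ± 0.77, SD, n = 4) stood first, then the KO nulliparous tumour with metastasis (7.38), KO nulliparous tumours without metastasis (7.28 ± 0.99, SD, n = 3), KO parous tumours without metastasis (7.21 ± 1.3, SD, n = 3), KO parous tumours with metastasis (6.48 ± 0.08, SD, n = 2) and WT nulliparous tumours (6.46 ± 0.13, SD, n = 4). From the KO nulliparous groups downward, neighbours in this order overlapped.

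Hoxa6, the next gene on the 5' side, followed the same tumours. It had 7.21 and 6.73 in KO parous tumours with metastasis, 6.88, 7.05 and 8.69 in KO parous tumours without, 8.01 in the KO nulliparous tumour with metastasis and 8.50, 6.86 and 6.85 in KO nulliparous tumours without. It had 8.14, 8.19, 9.20 and 9.38 in WT parous tumours and 6.85, 6.79, 6.77 and 6.98 in WT nulliparous tumours. The 6 highest samples were the same 6 for Hoxa5 and Hoxa6.

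Hoxa3, an anterior gene known for its role in thymus, parathyroid and thyroid development, had 6.36 and 6.25 in KO parous tumours with metastasis, 6.12, 6.27 and 7.53 in KO parous tumours without, 6.67 in the KO nulliparous tumour with metastasis and 7.13, 6.20 and 6.12 in KO nulliparous tumours without. It had 7.01, 7.11, 8.01 and 7.75 in WT parous tumours and 6.25, 6.29, 6.19 and 6.27 in WT nulliparous tumours. The same replicates stood out again. The RefSeq span of Hoxa3 (chr6:52169059-52213067) runs over Hoxa4, Hoxa5 and Hoxa6 on the same strand, so signal from shared transcripts and signal from separate genes cannot be told apart for these 4 genes.

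Hoxa7, on the 5' side of Hoxa6 and outside the span of Hoxa3, moved over a smaller range. It had 7.35 and 7.23 in KO parous tumours with metastasis, 7.40, 7.37 and 8.03 in KO parous tumours without, 7.72 in the KO nulliparous tumour with metastasis and 7.58, 7.32 and 7.24 in KO nulliparous tumours without. It had 7.85, 7.88, 8.15 and 8.31 in WT parous tumours and 7.49, 7.39, 7.25 and 7.37 in WT nulliparous tumours. The WT groups did not overlap, and KO parous replicate 3 without metastasis again lay among the WT parous tumours.

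Hoxa2, the selector gene of the second pharyngeal arch and the most 3' gene described, was dim. It had 6.06 and 6.01 in KO parous tumours with metastasis, 6.02, 6.04 and 6.33 in KO parous tumours without, 6.26 in the KO nulliparous tumour with metastasis and 6.69, 6.05 and 6.0 in KO nulliparous tumours without. It had 6.36, 6.47, 6.82 and 6.58 in WT parous tumours and 6.05, 6.02, 5.96 and 6.08 in WT nulliparous tumours. Hoxa4 had a range of 7.82 to 8.27 over the KO tumours, 8.27 to 8.49 over WT parous tumours and 7.82 to 8.07 over WT nulliparous tumours. Its WT groups were apart by a small step.

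Hoxa9 and Hoxa10, the 5' genes known from blood stem cells and the uterus, were flat and dim. Both lay below the array medians of 7.60 to 7.67. At this level a flat pattern and a lack of signal cannot be told apart. Hoxa9 lay between 6.25 and 6.50 in KO tumours and between 6.34 and 6.47 in WT tumours. Hoxa10 lay between 6.04 and 6.41 in KO tumours and between 6.18 and 6.42 in WT tumours. Their SDs over 17 samples were 0.07 and 0.11, against 1.14 for Hoxa5, 0.92 for Hoxa6 and 0.62 for Hoxa3.

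**Figure D1:**
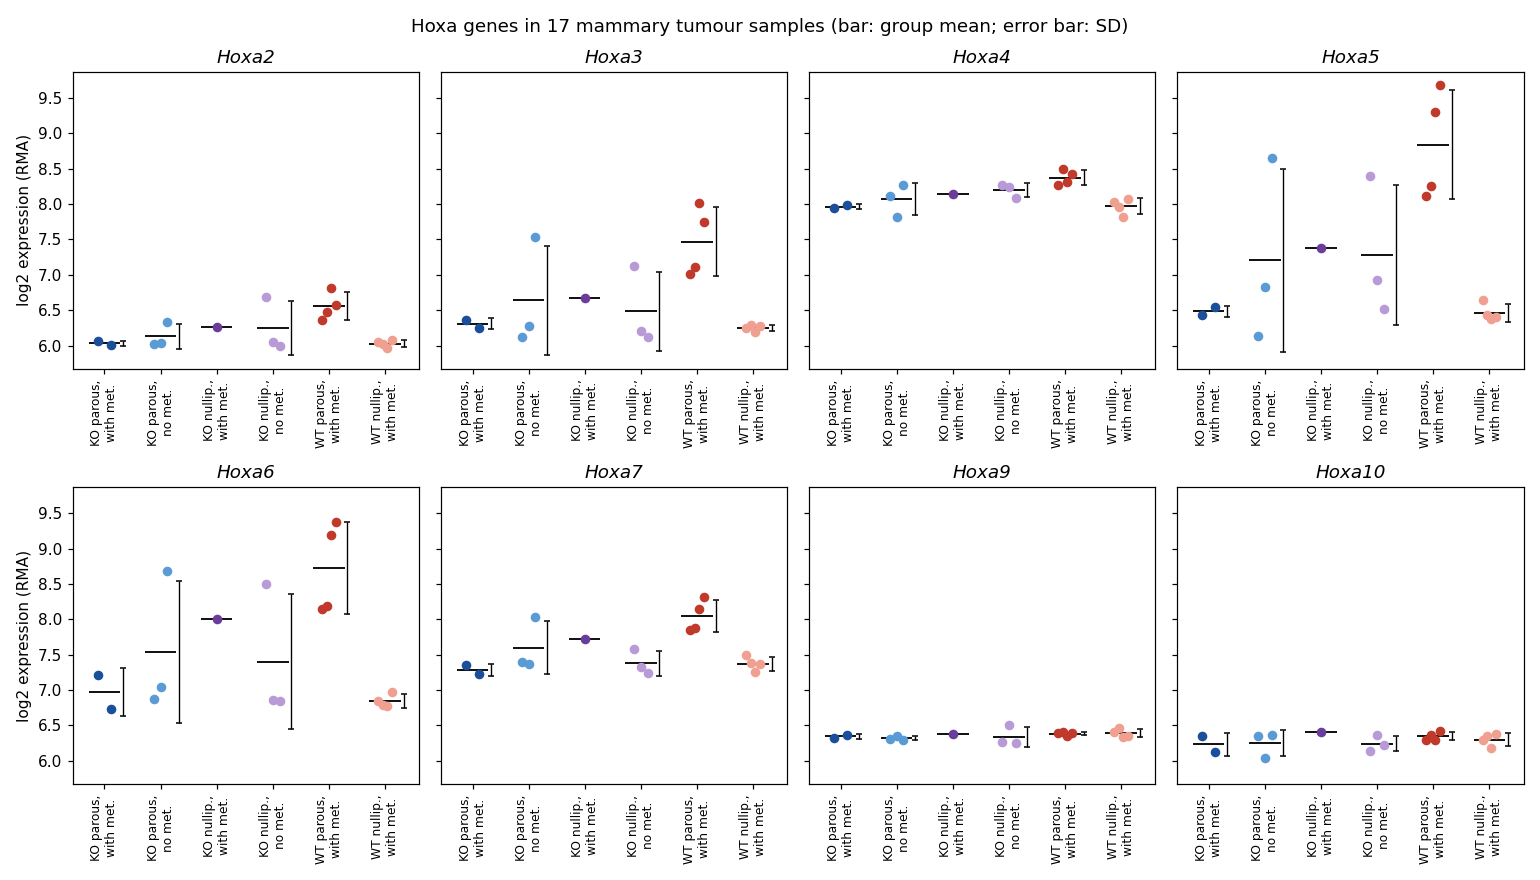
Log2 expression (y axis) of the 8 Hoxa genes in 17 tumour samples by group (x axis), with the group mean as a bar and the SD as an error bar. Hoxa5, Hoxa6 and Hoxa3 were high in all 4 WT parous tumours and in single KO tumours without metastasis (Hoxa5 8.65 and 8.40), and Hoxa9 stayed between 6.25 and 6.50.

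In WT mice with metastasis, the contrast that led to the choice of these genes, 6 of the 8 genes were higher in every parous than in every nulliparous tumour, as did 4.98% of all genes, while 7.63% were lower in every parous tumour. The log2 difference, parous minus nulliparous, was 2.38 (SE 0.52) for Hoxa5, 1.88 (SE 0.45) for Hoxa6, 1.22 (SE 0.31) for Hoxa3, 0.67 (SE 0.15) for Hoxa7, 0.53 (SE 0.14) for Hoxa2 and 0.40 (SE 0.09) for Hoxa4. It was -0.01 (SE 0.06) for Hoxa9 and 0.05 (SE 0.08) for Hoxa10. The size was largest at Hoxa5 and Hoxa6 and was smaller on both sides of them, with Hoxa4 smaller than both of its neighbours. Over all genes, 0.542% were higher and 1.86% lower at an adjusted p under 0.05 in the limma fit, a linear model across all genes. Because the genes were chosen on this contrast, no call is given for the members. Leaving out single samples kept the Hoxa5 difference between 2.10 and 2.62. In bulk tumour RNA, more cells of a type and more RNA per cell cannot be told apart.

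Parity was tested within KO mice without metastasis, tumours that the contrast behind the choice did not use. No Hoxa gene passed and none was apart between 3 parous and 3 nulliparous tumours, where 3.14% of all genes were higher and 2.9% lower without overlap. Hoxa5 differed by -0.08 (SE 0.61), Hoxa6 by 0.14 (SE 0.52), Hoxa3 by 0.16 (SE 0.36), Hoxa7 by 0.22 (SE 0.17), Hoxa2 by -0.12 (SE 0.16) and Hoxa4 by -0.13 (SE 0.11), all with an adjusted p of 1.0 in limma. Over all genes 0 passed (0%), against 655 at an unadjusted p under 0.05. The high replicate of each group set its spread. KO parous replicate 3 had 8.65 for Hoxa5 against 6.14 to 6.83 in the other 2 parous tumours, and KO nulliparous replicate 1 had 8.40 against 6.52 to 6.93 in the other 2 nulliparous tumours. Left-out replicates moved the Hoxa5 difference between -0.80 and 0.48.

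The 2 high KO tumours were high at several genes of the cluster. KO parous replicate 3 exceeded the mean of the other 2 tumours of its group by 2.16 for Hoxa5, 1.72 for Hoxa6, 1.33 for Hoxa3, 0.65 for Hoxa7, 0.30 for Hoxa4 and 0.30 for Hoxa2, and differed by -0.03 for Hoxa9. KO nulliparous replicate 1 exceeded its group by 1.68 for Hoxa5, 1.65 for Hoxa6, 0.97 for Hoxa3, 0.66 for Hoxa2, 0.30 for Hoxa7 and 0.11 for Hoxa4, and differed by -0.11 for Hoxa9. These tumours were singled out after their values were seen, and no test was made on them. Their fibroblast marker scores (mean log2 of 12 genes) were 9.12 in KO parous replicate 3, where the other 2 tumours had 9.06 and 10.41, and 9.94 in KO nulliparous replicate 1, where the other 2 had 9.56 and 9.74. The skeletal muscle score of KO parous replicate 3 was the highest of its group, 9.31 where the other 2 had 7.61 and 8.48. That of KO nulliparous replicate 1 was the lowest of its group, 7.40 where the other 2 had 8.23 and 8.69.

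The size of the parity difference in KO mice without metastasis minus that in WT mice with metastasis was -2.45 (SE 0.80) for Hoxa5, -1.74 (SE 0.69) for Hoxa6, -1.06 (SE 0.48) for Hoxa3, -0.65 (SE 0.21) for Hoxa2, -0.53 (SE 0.14) for Hoxa4 and -0.45 (SE 0.22) for Hoxa7. It is given without a p-value because it contains the contrast that led to the choice. The smallest adjusted p of any gene was 0.267, so 0 were called (0%), while the unadjusted p of 1922 lay under 0.05. Metastasis status differs between the 2 contrasts, so genotype and metastasis cannot be told apart in it.

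Genotype was compared in parous mice with metastasis, 2 KO samples against 4 WT tumours. The WT parous tumours of this comparison are also those of the contrast behind the choice, so its differences are not independent of that choice. Hoxa5, Hoxa6, Hoxa3, Hoxa7, Hoxa2 and Hoxa4 lay lower in both KO samples than in all WT tumours, 6 of 8 members, where 11.7% of all genes did so and 6.27% lay higher. None of them passed the limma test. The log2 difference, KO minus WT, was -2.36 (SE 0.64, adjusted p = 0.791) for Hoxa5, -1.76 (SE 0.55, 0.825) for Hoxa6, -1.16 (SE 0.38, 0.825) for Hoxa3, -0.76 (SE 0.18, 0.664) for Hoxa7, -0.53 (SE 0.17, 0.825) for Hoxa2 and -0.41 (SE 0.11, 0.801) for Hoxa4. Hoxa9 differed by -0.04 (SE 0.07) and Hoxa10 by -0.11 (SE 0.10). The median over the 8 genes was -0.64, against -0.03 over all genes. Over all genes 0 passed (0%), against 1142 at an unadjusted p under 0.05. Left-out replicates kept the Hoxa5 difference between -2.60 and -2.08.

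Over all 17 samples, with parity and metastasis status in an additive fit, the KO minus WT difference was below 0 for all 8 genes. Their median was -0.27, against -0.03 over all genes, of which 38% lay above 0. This fit includes the WT parous tumours behind the choice, so the direction is not independent of it. It also assumes the same parity difference in both genotypes, where that of Hoxa5 was 2.38 in WT and -0.08 in KO mice. None of the 8 genes passed. Hoxa5 differed by -1.03 (SE 0.68, adjusted p = 0.999), Hoxa6 by -0.61 (SE 0.57) and Hoxa3 by -0.53 (SE 0.36), and left-out replicates moved the Hoxa5 value between -1.83 and -0.69. Over all genes 0 passed (0%), with 885 at an unadjusted p under 0.05. Metastasis was compared within parous KO mice, 2 samples with against 3 without. Hoxa5 differed by -0.72 (SE 0.68, adjusted p = 0.967) and Hoxa6 by -0.58 (SE 0.58). Hoxa7 was lower in both samples with metastasis than in all 3 without, by -0.31 (SE 0.19), as were 10% of all genes, with 4.41% higher. Over all genes 0 passed (0%), with 805 at an unadjusted p under 0.05, and without KO parous replicate 3 the Hoxa5 difference was 0.00.

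**Figure D2:**
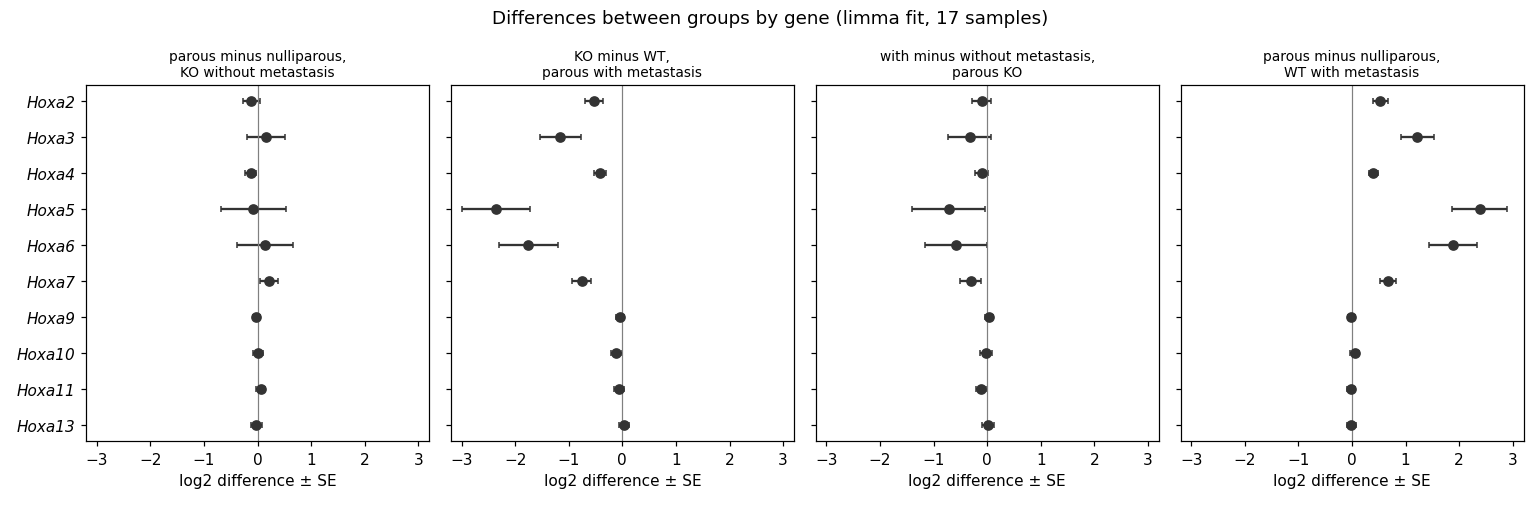
Log2 differences with SE (x axis) of 10 Hoxa genes in chromosome order (y axis) in 4 comparisons of the limma fit. Differences in WT parity reached 2.38 at Hoxa5, the KO minus WT difference in parous mice reached -2.36, and both were near 0 from Hoxa9 to Hoxa13.

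The genes from Hoxa2 to Hoxa7 moved together between tumours, Hoxa4 least closely. Over 17 samples Pearson r lay between 0.75 and 0.98 for the 15 pairs among these 6 genes, and between -0.16 and 0.51 for the 12 pairs that join one of them with Hoxa9 or Hoxa10. This split into 6 and 2 genes was made after the values were seen, and the 17 samples include the contrast behind the choice, so no p is given for them. In the 9 KO samples alone, r lay between 0.56 and 0.97 (median 0.83) for the 15 pairs. Of these, 8 passed an exact permutation test over all orders of the samples, adjusted over 28 pairs. This run was added after the data were seen, and its orders ignore the KO groups. The passes are counted by the same split, so they are no independent support for it. In KO samples the neighbours Hoxa5 and Hoxa6 had r = 0.94 (exact permutation p = 0.00183, adjusted 0.0162) and rho = 0.63 (exact permutation p = 0.0760, adjusted 0.194). Hoxa3 and Hoxa5 had r = 0.96 (exact permutation p = 0.000661, adjusted 0.00926) and rho = 0.75 (exact permutation p = 0.0255, adjusted 0.109). Hoxa6 and Hoxa7 had r = 0.91 (exact permutation p = 0.00231, adjusted 0.0162) and rho = 0.92 (exact permutation p = 0.00131, adjusted 0.0184). Of these pairs, only Hoxa6 and Hoxa7 passed by rho. No pair of Hoxa4 with another gene from Hoxa2 to Hoxa7 passed by r in KO samples. Those pairs had r between 0.56 and 0.64 (adjusted exact permutation p between 0.185 and 0.219). Of the 12 pairs with Hoxa9 or Hoxa10, none passed in KO samples, with r between -0.33 and 0.49. Both genes are dim, so a low r and a lack of signal cannot be told apart for them.

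The KO relation rests on few tumours. Without the 2 samples farthest from the median of the first gene, the 15 pairs had r between 0.01 and 0.97 (median 0.77) in 7 KO samples, and 0 of 15 passed. Hoxa5 levels were spread unevenly over the 17 samples, with 11 samples between 6.14 and 7.38 and 6 between 8.12 and 9.68, a gap of 0.74 where the next widest was 0.66. The 15 pairs had r between 0.10 and 0.93 (median 0.73) within the 11 lower samples and between 0.02 and 0.99 (median 0.53) within the 6 higher samples. Hoxa5 and Hoxa6 had r = 0.99 and rho = 1.0 in the 6 higher samples, and r = 0.72 and rho = 0.25 in the 11 lower samples. These sets were divided by Hoxa5 itself and the higher one holds the WT parous tumours, so the values are descriptions without a p.

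**Figure D3:**
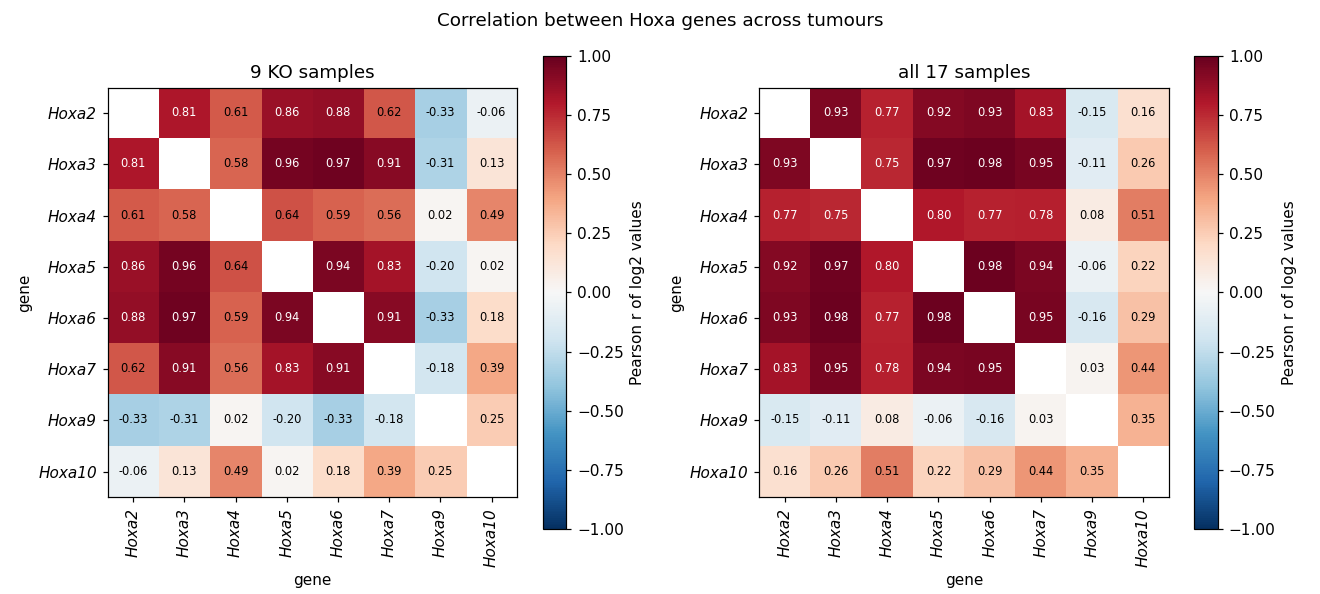
Pearson r between log2 values of each pair of Hoxa genes, in 9 KO samples (left) and in all 17 samples (right), with genes in chromosome order on both axes. The block from Hoxa2 to Hoxa7 lies between 0.56 and 0.97 in KO samples and between 0.75 and 0.98 in all samples, and the pairs with Hoxa9 or Hoxa10 lie at or under 0.51.

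Ranked by r with Hoxa5 over 17 samples among 19937 other genes, Hoxa6 was 1st, Hoxa3 2nd, Hoxa7 3rd, Hoxa2 5th and Hoxa4 17th, while Hoxa10 was 4660th and Hoxa9 11109th. In the 9 KO samples Hoxa3 was 1st, Hoxa6 4th, Hoxa2 16th, Hoxa7 32nd and Hoxa4 519th. A further ranking took 9982 well-expressed genes (mean log2 of at least 8, predicted genes left out), Hoxa4 among them. In it the patterns most like Hoxa5 over 17 samples were Acy3, an aminoacylase (r = 0.86), Lhpp, a phosphatase (0.83), Ginm1 (0.83), Paqr6 (0.81) and Skap2, an adaptor of Src-family kinases (0.80). In KO samples alone their r with Hoxa5 was 0.70 for Acy3, 0.82 for Lhpp, 0.48 for Ginm1, 0.67 for Paqr6 and 0.82 for Skap2. The lowest r with Hoxa5 were those of Mmadhc, which acts in vitamin B12 metabolism (-0.88), Miip (-0.82), Cybc1 (-0.81), Sec23b, a COPII coat protein (-0.81), and Odf2 (-0.80). Acy3, Lhpp and Paqr6 were also the 3 most like Hoxa6 (r = 0.88, 0.85 and 0.84), and Ginm1, Acy3 and Tbx2, a T-box transcription factor, were the 3 most like Hoxa3 (r = 0.86, 0.86 and 0.83). These r values describe the ranking, and the 17 samples share the parity contrast.

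Of these genes only Skap2 (chr6:51859165-52012549) lies near the cluster, as the closest measured neighbour on the Hoxa2 side. Skap2 had 9.82 and 10.51 in KO parous tumours with metastasis, 9.90, 10.50 and 10.81 in KO parous tumours without, 10.23 in the KO nulliparous tumour with metastasis and 10.81, 10.35 and 10.04 in KO nulliparous tumours without. It had 10.32, 10.42, 10.76 and 10.68 in WT parous tumours and 9.80, 9.79, 9.64 and 9.67 in WT nulliparous tumours. Its KO tumours covered the WT parous range, and the same 2 KO replicates that were high for Hoxa5 had its highest values, 10.81 each. The WT parity difference of Skap2 was 0.82 (SE 0.21, adjusted p = 0.0593 in limma), the KO parity difference 0.00 (SE 0.24) and the KO minus WT difference in parous mice -0.38 (SE 0.26, adjusted p = 0.928).

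**Figure D4:**
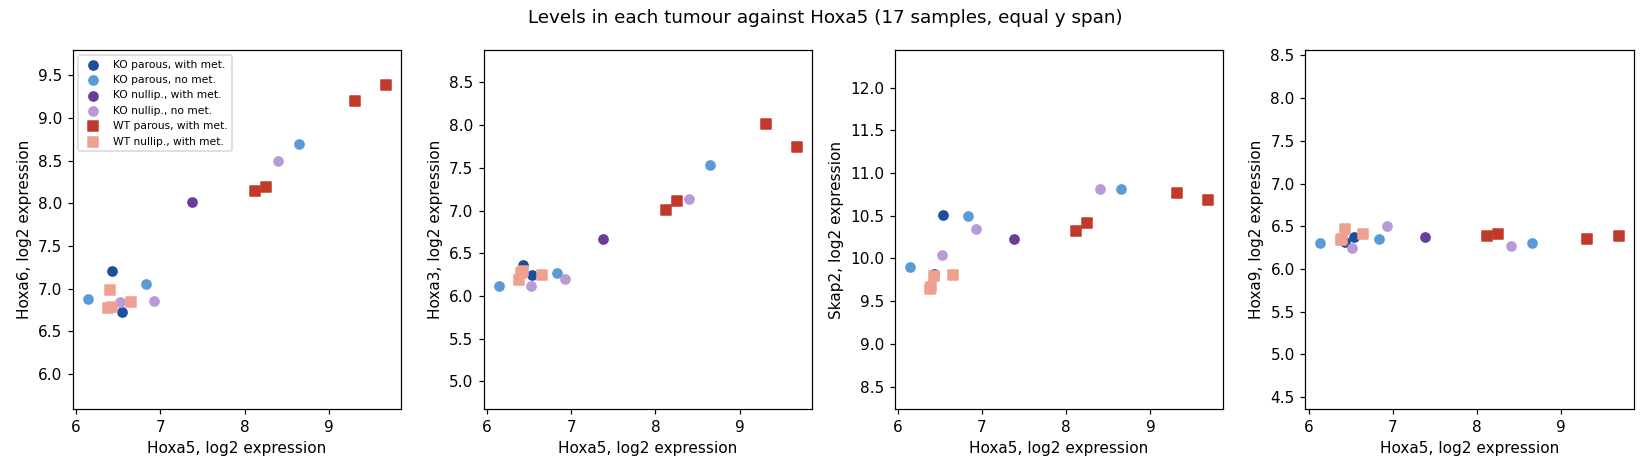
Log2 expression of Hoxa6, Hoxa3, Skap2 and Hoxa9 (y axes, equal span) against Hoxa5 (x axis) in 17 samples, circles for KO and squares for WT. Hoxa6 and Hoxa3 climb with Hoxa5 (r = 0.98 and 0.97), Skap2 does so with more scatter (r = 0.80), and Hoxa9 is flat (r = -0.06).

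The remaining neighbours did not share one pattern. Over the 10 nearest measured genes on each side, the WT parity difference ranged from -0.68 to 0.86 with a median of -0.02, against 0.01 over the 1091 other genes of chromosome 6. Cbx3, which encodes the heterochromatin protein HP1 gamma, was the only one of these 20 to pass, at 0.41 (SE 0.09, adjusted p = 0.0365 in limma). Tril, an accessory protein of Toll-like receptor signalling on the far side of Hoxa13, differed by 0.86 (SE 0.25, adjusted p = 0.0979). Tril had 7.22 and 7.10 in KO parous tumours with metastasis and 8.86, 7.96, 8.45 and 8.47 in WT parous tumours, a difference of -1.27 (SE 0.31, adjusted p = 0.688). None of the 20 passed in the KO parity, genotype or metastasis comparisons. Hoxa11, Hoxa13, the noncoding RNA gene Hottip and the homeobox gene Evx1, which close the 5' end, differed by -0.02, -0.01, -0.05 and -0.08 in WT parity. Mir196b, the source of the microRNA shown above, differed by -0.06 (SE 0.08, adjusted p = 0.827). Hoxaas2, an antisense RNA gene between Hoxa2 and Hoxa3, differed by 0.11 (SE 0.09, adjusted p = 0.628).

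The Hoxb, Hoxc and Hoxd clusters, each with 9 genes measured, were also measured. None of these genes passed in any of the 6 comparisons, and the median WT parity difference was -0.02 for Hoxb, 0.01 for Hoxc and -0.05 for Hoxd, against 0.60 for the 8 Hoxa genes and -0.01 over all genes. These medians are descriptions, since the Hoxa genes were chosen on this contrast.

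Regulators and partners of Hox genes were listed with earlier results of these data known. None of the 8 measured TALE cofactors (Pbx, Meis and related homeodomain proteins that bind DNA with HOX proteins), 11 Trithorax and MLL genes, 17 retinoic acid pathway genes or 3 caudal factors passed in any comparison. Among 21 Polycomb genes, Pcgf2 (MEL18, a PRC1 subunit) was higher in WT parous than in WT nulliparous tumours by 0.52 (SE 0.12, adjusted p = 0.0439) and Phc2 (a PRC1 subunit) was lower, by -0.43 (SE 0.10, adjusted p = 0.0421). That is 1 higher and 1 lower of 21, where 2.4% of all genes passed in either direction, and neither passed in KO parity, genotype or metastasis. Rdh10, which makes the retinaldehyde from which retinoic acid is formed, differed by -0.91 (SE 0.41, adjusted p = 0.865) and Crabp2, a retinoic acid carrier, by -0.69 (SE 0.58, adjusted p = 0.944) between KO and WT parous mice with metastasis. Rarb, a retinoic acid receptor and a known retinoic acid target, differed by 0.88 (SE 0.27, adjusted p = 0.115) in WT parity and by 0.04 (SE 0.31, adjusted p = 1.0) in KO parity. Kmt2a, which encodes MLL1, differed by 0.19 (SE 0.11, adjusted p = 0.437) in WT parity, and Meis1 by -0.97 (SE 0.32, adjusted p = 1.0) in KO parity. Rarb and Kmt2a were named after their values were seen. In WT parity 5 Trithorax and MLL genes lay above and 6 below 0 (median -0.06). Of the retinoic acid pathway genes, 11 lay above and 6 below 0 (median 0.08). Of 4 measured genes reported as HOXA5 targets in human cells, none passed, and all 4 lay below 0 in WT parity (median -0.11). Over all genes 48.3% lay above 0 in that contrast, with a median of -0.01. Cd24a differed by -0.13 (SE 0.17, adjusted p = 0.794) and Ptn by -0.14 (SE 0.19, adjusted p = 0.790).

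Markers of the cell types a tumour can hold were compared beside the Hoxa genes, and none passed upward with parity in WT mice. In WT mice, 0 of 12 fibroblast markers and 0 of 10 adipocyte markers lay above 0 (medians -0.69 and -0.48), with fibroblast scores of 8.0 to 10.07 in parous and 9.45 to 10.41 in nulliparous tumours. The adipocyte gene Lipe (1 of 10 markers) and the lymphocyte genes Nkg7 and Ncr1 (2 of 11) passed, all lower in parous tumours. Over all genes in WT parity, 0.542% passed higher, 1.86% passed lower and 48.3% lay above 0. Endothelial markers lay above 0 in 1 of 12, macrophage and myeloid markers in 1 of 12, skeletal muscle markers in 0 of 10, lymphocyte markers in 0 of 11, neutrophil and progenitor markers in 8 of 10 (median 0.07), basal markers in 4 of 10 and luminal epithelial markers in 5 of 13 (median -0.05). The r of the fibroblast score with Hoxa5 was -0.44 over 17 samples and 0.13 over the 9 KO samples, given as descriptions. Which cells carried the Hoxa signal was not tested.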

How the data were processed

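Per the labels' protocols, Trizol was used to extract total RNA of the tumours, which was then fragmented and biotinylated. The authors deposited log2 expression values of 35556 probe sets on 18 arrays, made with RMA and the oligo package per the submitters' processing notes; the sources used here give no versions. Array medians lay between 7.60 and 7.67, and the number of arrays, not read depth, limits the precision. The 21789 probe sets that the platform annotation gives 1 gene were used, with the highest mean kept per gene (19938 genes); 1621 with several genes and 12146 with none were left out. RefSeq on GRCm38.p6 gave gene order, promoters and the mature microRNA; 19852 genes matched. The sources used here name no build for the platform's probe sets.

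Groups follow the labels, which call the arrays biological replicates. The 2 near-identical arrays were averaged. Comparisons used limma 3.58.1 in R 4.3.3 (lmFit, eBayes, 2-sided) on a fit of 6 group means, or an additive fit of genotype, parity and metastasis status, with Benjamini-Hochberg adjustment over all genes and a threshold of 0.05. The fits were tested on simulated data. Correlations used permutation tests in scipy 1.17.1 and numpy 2.4.6 (2-sided; 100000 resamples, or all orders for 9 or fewer samples). Named genes are the 8 members, the measured genes of the cluster and its flanks, the 5 genes most and least like Hoxa5, the 3 most like Hoxa3 and Hoxa6, and of each list the members that passed or else moved most; Rarb and Kmt2a were chosen after their values were seen. The members and lists were chosen with earlier results of these data known. Alternatives kept both arrays apart, repeated quantile normalization, left out the dimmest 40% of genes, averaged probe sets, let the variance prior follow intensity, fitted only the groups compared, used the replicate number as a block, and left out each sample. The co-variation in KO tumours alone and on each side of the widest gap in Hoxa5 was added after the data were seen.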

Additional observations from a re-analysis of the deposited data

How the results depend on the processing

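No difference of a Hoxa gene that was tested passed under any alternative run. Some of these differences changed sign when single samples were left out. In KO parity that of Hoxa3 moved between -0.28 and 0.48 and that of Hoxa6 between -0.43 and 0.69. Replicate numbers in the labels did not pair the tumours. Deviations of same-numbered WT parous and WT nulliparous tumours correlated between -0.14 and 0.07, those of KO tumours without metastasis between -0.31 and -0.06, and no sample correlated best with its own number. The replicate block was fitted on arrays kept apart, without the KO nulliparous tumour with metastasis. With it, 1 gene was called in each of the 2 genotype comparisons. In WT parity the fit with the block passed 368 genes, where all 18 arrays without the block passed 628. With only the groups compared in the fit, WT parity passed 878 genes in place of 478. Calls of Hoxa genes in WT parity are not given, since the genes were chosen on that contrast. Leaving out single samples gave 57 to 770 genes in WT parity and 0 to 2 in KO parity. It gave 0 to 17 in genotype among parous mice, 0 to 5 in metastasis and 0 to 8 in the difference of the parity contrasts. The 17 genes came without the averaged pair, which left 1 KO sample in that comparison. The 770 came without KO parous replicate 2 without metastasis. The cause was not tested. Neighbouring pairs were recomputed in subsets of the samples. In KO tumours alone r was 0.81 for Hoxa2 and Hoxa3 (adjusted permutation p = 0.0581), 0.58 for Hoxa3 and Hoxa4 and 0.64 for Hoxa4 and Hoxa5. Without the 2 farthest KO samples r was 0.93, 0.01, 0.77, 0.71 and 0.95 for the 5 neighbouring pairs from Hoxa2 to Hoxa7. Below the widest gap in Hoxa5 r was 0.89, 0.10, 0.30, 0.72 and 0.82 for these pairs, and above it 0.53, 0.02 and 0.22 for the first 3 and 0.78 for Hoxa6 and Hoxa7. As deviations from group means, r was 0.88, 0.45, 0.45, 0.96 and 0.92 for the 5 neighbouring pairs. The median over the 15 pairs from Hoxa2 to Hoxa7 was 0.88, and the 2 neighbouring pairs at 0.45 were those with Hoxa4. Hoxa2, Hoxa9 and Hoxa10 are dim, and RMA understates differences of such genes.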

Other observations

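In the single KO nulliparous tumour with metastasis, neighbouring genes of the Hoxb cluster stood above all other 16 samples. Hoxb3 had 9.31 there, where the others lay between 7.98 and 8.17. Hoxb2 had 8.56 (others 6.67 to 7.74), Hoxb4 had 8.08 (others 6.67 to 7.09) and Hoxb5 had 7.07 (others 6.24 to 6.75). Hoxb6, the next gene, had 6.63 and lay inside the range of the others, 6.34 to 6.69. The same tumour had a lymphocyte marker score (mean log2 of 11 genes) of 7.24, where the other 8 KO samples had 6.17 to 6.39 and the WT tumours 6.27 to 7.29. Its macrophage and myeloid score (12 genes) was 9.59, where the other KO samples had 8.69 to 10.07 and the WT tumours 8.80 to 9.80. The group holds 1 tumour, so no test was made, and the part of these cells in the Hoxb values was not tested. In the same tumour Hoxa5 had 7.38 and Hoxa6 had 8.01, between the low and the high samples. Hoxc8 was the only gene of the Hoxc cluster with a range over 1 log2 unit, with its highest value of 7.60 in WT nulliparous replicate 1 and its lowest of 6.45.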
